A study of Mus musculus with 14 samples.

Results

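Complement genes were followed across 14 arrays of mouse lung RNA. The set named 9 genes: the recognition subunits C1qa, C1qb and C1qc, the activation components C3, C4b and Cfb, the anaphylatoxin receptors C5ar1 and C3ar1, and the inhibitor Cd55. A probe set, the group of oligonucleotides on the array that reads out a transcript, was used where the platform annotation named the member and no other gene. By this rule 7 of the 9 genes were measured, all except C3 and C4b. For C3 no probe set was named here, and C4b was read only by a probe set it shares with C4a. The 7 genes had 14 probe sets between them, of 45101 on the array, and each gene was represented by its probe set of highest mean over the 14 arrays. They were 7 of 18194 genes with a probe set of their own, and all 7 were among the 11360 genes that exceeded the array median on at least 3 arrays and were tested.

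The study exposed mice to injurious mechanical ventilation, with or without pre-B-cell colony-enhancing factor (PBEF, also known as Nampt, an enzyme of NAD synthesis that is also secreted as a cytokine-like protein). The Control group (4 arrays) was given PBS and was 18-22 weeks old. The VALI group (4 arrays, 18-22 weeks) was ventilated for 4 hours at a tidal volume of 40 ml/kg according to the sample labels, while the series text gives 30 ml/kg. The PBEF+/- group (3 arrays, 18-22 weeks) was labelled as not ventilated, and the VILI PBEF+/- group (3 arrays) was ventilated as VALI was but was 8-12 weeks old, so its age and its treatment cannot be told apart. The series text describes recombinant human PBEF given into the trachea, and the sample labels do not say whether PBEF+/- is a genotype or the protein. Every sample, ventilated ones included, carries the description of a control animal, and the labels do not say that each array is a separate animal. P-values therefore measure the spread between these arrays, which may be technical in part. Control, VALI and PBEF+/- each held arrays of both sex-linked patterns, so the arrays of these groups cannot all come from the same animal. For example, the Y-linked gene Eif2s3y read 10.74 and 10.56 in Control replicates 1 and 4 and 3.13 in replicates 2 and 3. Whether arrays of the same pattern are separate animals is not known.

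Complement is a cascade of plasma and tissue proteins that marks microbes and damaged cells. C1q, built from the products of C1qa, C1qb and C1qc and made mainly by tissue macrophages, starts the classical pathway, which cleaves C4 and C3. Factor B, the product of Cfb, forms the alternative pathway's C3-cleaving enzyme. The released fragments C3a and C5a act through C3ar1 and C5ar1, receptors of myeloid cells, and Cd55 (decay-accelerating factor) is a membrane protein that dismantles the C3-cleaving enzymes on the cell that carries it.

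The array values were log2 expression values, so a difference of 1 is a doubling, and array medians lay between 4.60 and 4.75. Lung markers were high on every array: Sftpc, the surfactant protein of alveolar type II cells, read at least 15.38 and Scgb1a1, the secretoglobin of club cells, at least 15.77. In 2 arrays Il6, an inflammatory cytokine gene, went against the label. Il6 read 2.09 to 2.45 in Control, 9.60, 9.84 and 9.85 in VALI replicates 1 to 3, and 10.32 to 12.75 in VILI PBEF+/-. In contrast, it was 2.78 in VALI replicate 4, and in PBEF+/- it was 2.10, 2.56 and, in replicate 3, 10.87. The labels were kept as given, and the results the text turns on are also given without these 2 arrays. They were singled out by a measured value, so any p-value computed without them depends on having chosen them. The sex-linked transcript Xist was also uneven over the groups: it was above 13 in 2 of 4 Control, 3 of 4 VALI, 2 of 3 PBEF+/- and 3 of 3 VILI PBEF+/- arrays and below 3 in the rest, which are called Xist-high and Xist-low. The tissue was whole lung, in which a change in the number of cells of a type and a change in RNA per cell cannot be told apart.

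The promoter stretches of 5 measured members, those matched in the promoter table used here, are shown so that the genes that passed the test in at least 1 comparison (C1qb, C5ar1 and Cd55) can be read beside C1qc and C3ar1, which passed in none. Each is the 250 bases before the annotated start, 5′ to 3′ on the minus strand, from RefSeq's GRCm38.p6, with motif matches on either strand in capitals.
C1qb, chr4:136886201-136886450: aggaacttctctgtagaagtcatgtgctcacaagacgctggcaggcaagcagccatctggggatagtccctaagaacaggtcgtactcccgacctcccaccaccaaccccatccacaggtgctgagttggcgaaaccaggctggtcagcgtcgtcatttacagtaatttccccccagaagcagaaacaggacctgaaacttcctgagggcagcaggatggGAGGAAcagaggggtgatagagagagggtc
C1qc, chr4:136892915-136893164: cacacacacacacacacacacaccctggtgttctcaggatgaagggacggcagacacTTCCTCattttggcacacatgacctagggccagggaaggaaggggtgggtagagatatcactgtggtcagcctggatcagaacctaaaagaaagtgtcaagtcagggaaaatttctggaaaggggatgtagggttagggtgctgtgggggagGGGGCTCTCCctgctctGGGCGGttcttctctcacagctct
C3ar1, chr6:122856158-122856407: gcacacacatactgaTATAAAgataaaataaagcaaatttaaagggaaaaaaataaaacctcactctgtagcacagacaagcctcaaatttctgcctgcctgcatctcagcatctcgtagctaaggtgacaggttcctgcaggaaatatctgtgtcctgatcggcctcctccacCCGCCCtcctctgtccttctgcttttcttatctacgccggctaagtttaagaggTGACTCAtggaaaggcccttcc
C5ar1, chr7:16259339-16259588: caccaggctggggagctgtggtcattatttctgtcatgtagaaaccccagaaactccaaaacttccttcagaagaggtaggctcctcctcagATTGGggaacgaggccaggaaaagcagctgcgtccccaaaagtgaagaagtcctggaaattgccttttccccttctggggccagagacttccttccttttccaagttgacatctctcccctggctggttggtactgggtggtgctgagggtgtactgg
Cd55, chr1:130462745-130462994: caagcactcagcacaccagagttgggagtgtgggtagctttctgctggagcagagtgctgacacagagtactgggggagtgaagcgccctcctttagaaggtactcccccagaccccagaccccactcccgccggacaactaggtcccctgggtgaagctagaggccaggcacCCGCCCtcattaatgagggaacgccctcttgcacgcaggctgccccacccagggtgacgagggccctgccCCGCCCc
The motifs searched were AP-1 (TGACTCA), the PU.1 type (GAGGAA), the GC box (GGGCGG), the TATA box (TATAAA), the CCAAT box (CCAAT) and the NF-kB consensus. The C1qb stretch held a single PU.1-type match, beginning 30 bases before the start, a motif found in 23.3% of 32851 promoter stretches of this length. C1qc also held a PU.1-type match, beginning 193 bases before the start on the other strand, with a GC box (32.7% of promoters) and an NF-kB match (7.3%). C3ar1 held an AP-1 match beginning 22 bases before the start (4.5% of promoters), a GC box and a TATA box match 235 bases away (12.4%). C5ar1 held only a CCAAT box on the other strand (33.8%), and Cd55 held 2 GC boxes on the other strand. Of the 6 motifs, none was shared by C5ar1 and Cd55, and a link between motifs and expression was not tested. A match is a stretch of letters and not a measured binding site.

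**Figure D1:**
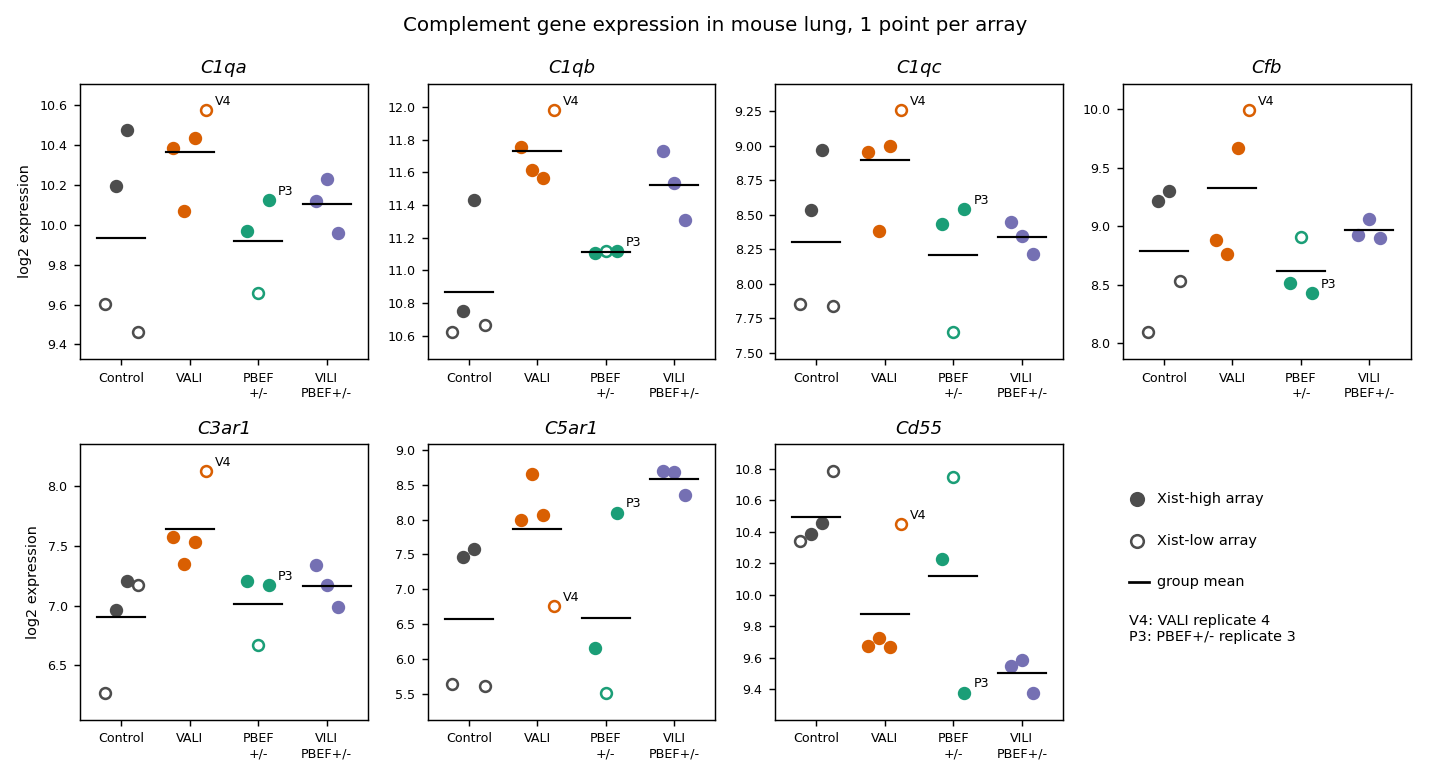
Log2 expression of the 7 measured complement genes (vertical axis, a scale for each gene) in the 4 groups (horizontal axis), with 1 point per array and a bar at the group mean; open points are Xist-low arrays and V4 and P3 mark the 2 arrays whose Il6 went against the label. C1qb in VALI lay above all Control arrays (11.56 to 11.98 against 10.62 to 11.43), and Cd55 in VILI PBEF+/- lay below them (9.38 to 9.58 against 10.34 to 10.78).

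C1qb encodes the B chain of C1q, and it was higher in ventilated lungs in both comparisons in which any member passed the test with all arrays. Control arrays read 10.62, 10.75, 11.43 and 10.67, and VALI arrays read 11.76, 11.61, 11.56 and 11.98. PBEF+/- arrays read 11.11, 11.12 and 11.12, and VILI PBEF+/- arrays read 11.73, 11.54 and 11.31. All VALI arrays lay above all Control arrays, and all VILI PBEF+/- arrays lay above all PBEF+/- arrays, but Control replicate 3 reached into the range of VILI PBEF+/-. The group means ran from Control (10.87 ± 0.38, SD, n = 4) through PBEF+/- (11.11 ± 0.01, n = 3) and VILI PBEF+/- (11.52 ± 0.21, n = 3) to VALI (11.73 ± 0.19, n = 4), and no neighbours in this order passed the limma test. C1qb was higher in VILI PBEF+/- than in Control by 0.66 ± 0.18 (log2 difference ± SE), a 1.58-fold difference with a limma adjusted p of 0.0290. It also rose, by 0.64 ± 0.13 (1.55-fold, adjusted p = 0.0289), when the mean of the ventilated groups was set against the mean of the unventilated groups. Without the 2 arrays that went against their labels, these differences were 0.66 (adjusted p = 0.0169) and 0.59 ± 0.14 (adjusted p = 0.00624). In VALI against Control the difference was larger, 0.86 ± 0.17, yet its adjusted p was 0.0809, and it was 0.78 ± 0.18 with an adjusted p of 0.0134 without the 2 arrays. The interval of the as-labelled VALI difference ran from 0.50 to 1.22.

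C1qa and C1qc encode the A and C chains, and the 3 genes are immediate neighbours in the order C1qb, C1qc, C1qa among protein-coding genes of mouse chromosome 4. C1qa read 9.60, 10.19, 10.47 and 9.46 in Control, 10.38, 10.07, 10.43 and 10.57 in VALI, 9.97, 9.66 and 10.12 in PBEF+/-, and 10.12, 10.23 and 9.96 in VILI PBEF+/-. C1qc read 7.85, 8.53, 8.97 and 7.84 in Control, 8.95, 8.38, 9.0 and 9.26 in VALI, 8.43, 7.65 and 8.54 in PBEF+/-, and 8.44, 8.35 and 8.22 in VILI PBEF+/-. For both genes the Control group was wide and overlapped every other group. The 2 Xist-high Control arrays averaged 10.33 for C1qa and 8.75 for C1qc, and the 2 Xist-low ones 9.53 and 7.84. The VALI minus Control difference was 0.43 ± 0.21 for C1qa and 0.60 ± 0.28 for C1qc, with limma adjusted p-values of 0.281 and 0.275. The differences over the mean of the ventilated groups were 0.31 ± 0.16 and 0.36 ± 0.21, and neither passed. Leaving out the 2 arrays, these differences were 0.36 ± 0.22 and 0.48 ± 0.29 in VALI against Control and 0.32 ± 0.17 and 0.39 ± 0.23 over the mean of the ventilated groups, again with no call. Across the 14 arrays C1qa and C1qc moved together closely (Pearson r = 0.953), more than either did with C1qb (0.756 and 0.690), as a description of arrays that share their groups. Within groups the 3 correlations were 0.950, 0.717 and 0.684. These values used the C1qb probe set with the highest mean. The C1qb probe set with the middle mean read 9.33, 10.13, 10.48 and 9.54 in Control. In PBEF+/- it read 9.70, 8.80 and 10.33. Like C1qa, it was high in Control replicates 2 and 3 and lowest of PBEF+/- in replicate 2. Its correlations were not computed, so the weaker link of C1qb may depend on the probe set. A test of whether C1qb changed by more than C1qa or C1qc was not run, so the subunits are not shown to differ in response.

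Other probe sets of C1qb gave the same direction for ventilation. The probe set with the middle mean differed by 0.60 ± 0.23 in the mean of the ventilated groups against the unventilated (adjusted p = 0.111, limma over all probe sets) and the one with the lowest mean by 0.46 ± 0.12 (adjusted p = 0.0491). Neither passed in VILI PBEF+/- against Control (0.33 ± 0.32 and 0.43 ± 0.17, adjusted p = 0.499 and 0.0963). Macrophages make C1q, and 0 of 11 tested macrophage markers passed in VILI PBEF+/- against Control, beside 6.39% of all tested genes that passed as higher and 12.8% as lower. Over the mean of the ventilated groups 0 of 11 passed, beside 4.09% and 4.27%. The median marker difference was -0.05 and 0.05 in these comparisons, against -0.14 and -0.05 over all tested genes, and in VALI against Control, where the C1qb difference was largest, it was 0.33 against -0.06. Mrc1, the mannose receptor gene, passed as higher without the 2 arrays in VALI against Control (0.89 ± 0.24, adjusted p = 0.0272) and over the mean of the ventilated groups (0.74 ± 0.19, adjusted p = 0.00965). It was picked from the 11 markers after its values were seen, and 6.53% and 14.9% of all tested genes passed as higher there. Not every marker moved this way: with all arrays Lyz2 averaged 15.43 in VALI and 15.51 in Control. The mean log2 level of the macrophage markers ranged from 8.88 to 9.79 in Control, 9.78 to 10.52 in VALI, 9.55 to 9.85 in PBEF+/- and 9.62 to 9.73 in VILI PBEF+/-. The lowest of these, 8.88, was in Control replicate 1, the array that also held the lowest C1qb, Cfb and C3ar1 values of all 14. That array held the lowest value of 9.86% of the tested genes. The part of macrophage number in the C1q values was not tested.

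Cfb encodes factor B. Control arrays read 8.09, 9.22, 9.31 and 8.53, VALI arrays 8.88, 8.76, 9.67 and 9.99, PBEF+/- arrays 8.52, 8.90 and 8.43, and VILI PBEF+/- arrays 8.93, 9.06 and 8.90. The groups overlapped in every comparison with Control, whose own values, 8.09 to 9.31, lay farther apart than any group means. The differences were 0.54 ± 0.30 in VALI against Control, 0.18 ± 0.33 in VILI PBEF+/- against Control and 0.35 ± 0.35 in VILI PBEF+/- against PBEF+/-, and the limma adjusted p-values were 0.355, 0.716 and 0.555. The first of these was 0.31 ± 0.30 (adjusted p = 0.498) without the 2 arrays. The difference over the mean of the ventilated groups was 0.44 ± 0.23 (adjusted p = 0.202), and 0.28 ± 0.23 (adjusted p = 0.348) without the 2 arrays. Cfb had a single probe set.

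For C4 only the probe set shared by C4a and C4b was read. It gave 11.30 ± 0.21 (SD, n = 4) in Control, 11.54 ± 0.39 (n = 4) in VALI, 11.05 ± 0.34 (n = 3) in PBEF+/- and 11.31 ± 0.18 (n = 3) in VILI PBEF+/-. Its reading cannot be divided between the 2 genes, it is no member by the rule, and it was not tested. VALI replicate 4 held the highest value of all arrays, 12.04. The same array held the highest of all 14 values for 5 of the 7 measured members (C1qa, C1qb, C1qc, Cfb and C3ar1), against 12.3% of all tested genes. This array was noticed after its values were seen. It is Xist-low, and its mean neutrophil marker level was 6.71, beside 9.51 to 10.36 in the other VALI arrays.

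C5ar1, the receptor for C5a on neutrophils and macrophages, had the widest span of the members, 3.19 log2 units between its lowest and highest array. Control arrays read 5.64, 7.46, 7.58 and 5.61, and VALI arrays read 8.00, 8.65, 8.06 and 6.75. PBEF+/- arrays read 6.15, 5.51 and 8.10, and VILI PBEF+/- arrays read 8.70, 8.69 and 8.36. The VILI PBEF+/- arrays were tightly grouped and above every Control and PBEF+/- array, while Control fell into a high and a low pair. The order of group means was Control (6.57 ± 1.10, SD, n = 4), PBEF+/- (6.59 ± 1.35, n = 3), VALI (7.86 ± 0.80, n = 4) and VILI PBEF+/- (8.58 ± 0.19, n = 3). Control and PBEF+/-, and VALI and VILI PBEF+/-, did not differ beyond the test, and PBEF+/- was not compared with VALI. C5ar1 in VILI PBEF+/- was 4.02-fold its Control level, a log2 difference of 2.01 ± 0.65 (limma adjusted p = 0.0487). It rose by 1.64 ± 0.46 over the mean of the ventilated groups (adjusted p = 0.0477). Against PBEF+/- the VILI PBEF+/- difference was 1.99 ± 0.70 with an adjusted p of 0.175, and VALI against Control gave 1.29 ± 0.61 (adjusted p = 0.277). All 4 of these comparisons passed without the 2 arrays: 2.01 ± 0.47 (adjusted p = 0.00846), 2.21 ± 0.37 (0.000914), 2.75 ± 0.56 (0.00563) and 1.66 ± 0.47 (0.0332).

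The C5ar1 level also moved with Xist. The 2 Xist-high Control arrays averaged 7.52 and the 2 Xist-low ones 5.62. This division of Control was seen in the C5ar1 probe set with the highest mean. The second C5ar1 probe set read 2.15 and 4.94 in the Xist-low Control arrays, replicates 1 and 4, and 5.20 and 5.21 in the Xist-high ones, so there Xist-low replicate 4 lay close to the Xist-high arrays. With the groups as terms in the same limma fit, Xist-high arrays were higher by 1.69 ± 0.29 (adjusted p = 0.0149), and 2.42% of tested genes passed that test in either direction. C5ar1 was the member that passed it. With the Xist pattern as a covariate, the VILI PBEF+/- minus Control difference was 1.16 (adjusted p = 0.0801) and the difference over the mean of the ventilated groups was 1.15 (adjusted p = 0.0588). Under that covariate 0 of 7 members passed in either comparison, with 529 and 0 genes passing overall. The Xist-high arrays include all 3 of VILI PBEF+/-, so the pattern and the group are partly aligned. They also include every array with Il6 of 9.60 or more, PBEF+/- replicate 3 among them. VALI replicate 4, with Il6 of 2.78, is the Xist-low array of its group. The Xist term, fitted with all 14 arrays, is therefore partly aligned with Il6 also, and the parts cannot be told apart.

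Neutrophils carry C5ar1, and their markers moved with ventilation. Of 10 tested neutrophil markers, 6 were higher in VILI PBEF+/- than in Control, where 6.39% of all tested genes passed as higher (median difference 3.27, beside -0.14 over all tested genes), and 5 over the mean of the ventilated groups, where 4.09% did. Ngp, the neutrophilic granule protein gene, had a lower mean in VILI PBEF+/- (4.34) than in Control (4.74) and did not pass. Their mean log2 level was 6.03 to 6.95 in Control, 9.51 to 10.36 in VALI replicates 1 to 3, 6.71 in VALI replicate 4, 6.12, 6.81 and 9.72 in PBEF+/-, and 9.74 to 10.02 in VILI PBEF+/-. The markers S100a8 and Csf3r were not near the bottom of the scale on any array, reading at least 10.23 and 7.22. Others were: in Control, Mmp8 read 2.91 to 3.41, Clec4e 2.05 to 3.19 and Il1r2 2.69 to 3.95, all below the lowest array median. The mean levels and the median difference of the markers include these genes, so their sizes rest in part on values near the floor. The 2 C5ar1-high Control arrays had mean neutrophil marker levels of 6.74 and 6.95, above the 6.03 and 6.30 of the 2 C5ar1-low ones. Single markers did not all keep this order. In Control replicate 4, a C5ar1-low array, Csf3r (8.23) and Mmp9 (7.67) were the highest of Control. Ltf (7.30) and Ngp (3.42) were the lowest of Control there. The part of neutrophil number in the C5ar1 difference was not tested.

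**Figure D2:**
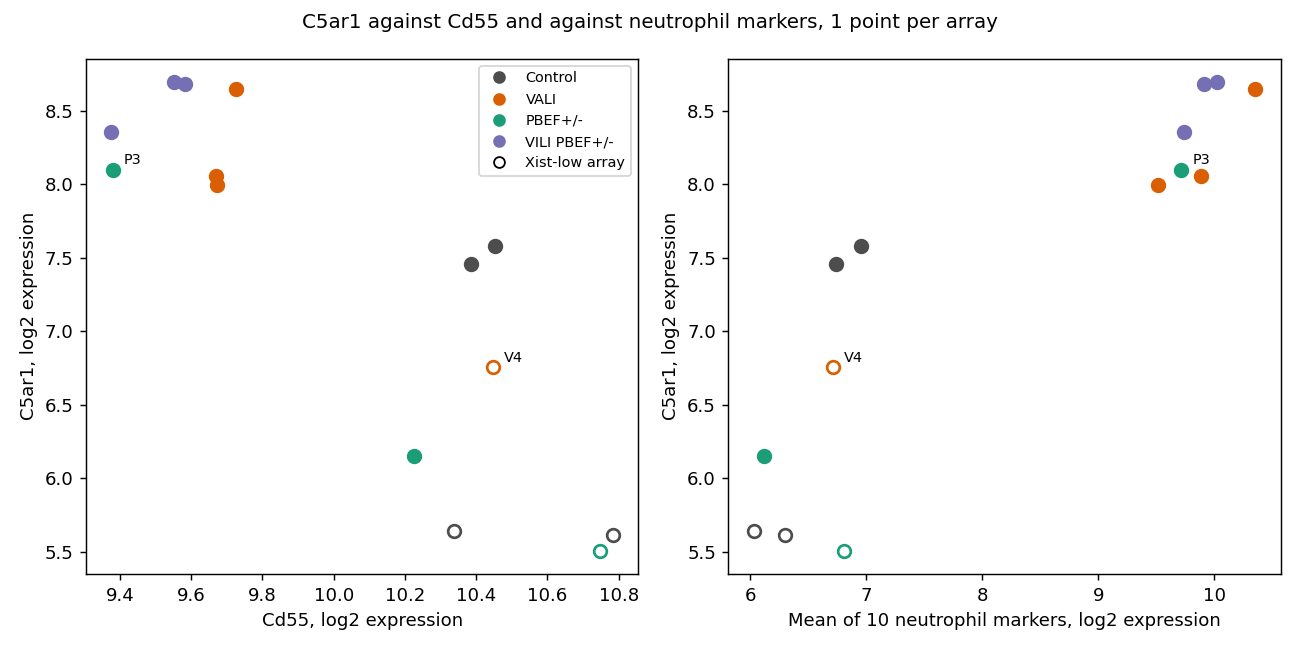
C5ar1 log2 expression (vertical axes) against Cd55 log2 expression and against the mean log2 level of 10 neutrophil markers (horizontal axes), with 1 point per array coloured by group; open points are Xist-low arrays. The 7 arrays with Il6 above 9 have C5ar1 of 8.00 or more with Cd55 of 9.72 or less, and the Control arrays divide into C5ar1 near 7.5 with neutrophil marker levels of 6.74 and 6.95 and C5ar1 near 5.6 with levels of 6.03 and 6.30. Single neutrophil markers did not all keep that order in Control.

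A second C5ar1 probe set was weaker and above the array median on 10 arrays. It read 4.38 ± 1.49 (SD, n = 4) in Control and 5.89 ± 0.31 (n = 3) in VILI PBEF+/-, a difference of 1.51 ± 0.89 that did not pass (limma adjusted p = 0.251). Over the mean of the ventilated groups it differed by 1.56 ± 0.63 (adjusted p = 0.130), and by 2.21 ± 0.57 (adjusted p = 0.0137) without the 2 arrays. In that fit over all probe sets, the C5ar1 probe set with the highest mean had an adjusted p of 0.0571 with all 14 arrays.

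C3ar1, the receptor for C3a, did not pass in any comparison. It read 6.27, 6.96, 7.20 and 7.17 in Control, 7.57, 7.35, 7.54 and 8.13 in VALI, 7.20, 6.67 and 7.17 in PBEF+/-, and 7.34, 7.17 and 6.99 in VILI PBEF+/-. All VALI arrays were above all Control arrays and above all VILI PBEF+/- arrays. The VALI minus Control difference was 0.74 ± 0.23 (limma adjusted p = 0.159), and 0.58 ± 0.23 (adjusted p = 0.100) without the 2 arrays. The VILI PBEF+/- minus VALI difference was -0.48 ± 0.25 (adjusted p = 0.509), and -0.32 ± 0.24 (adjusted p = 0.835) without them. The difference over the mean of the ventilated groups was 0.45 ± 0.18 (adjusted p = 0.105), with an interval from 0.07 to 0.83. Leaving out the 2 arrays gave 0.41 ± 0.18 (adjusted p = 0.0880). A second probe set differed by 0.63 ± 0.32 there (adjusted p = 0.213), and the remaining one was near 2.0 on all arrays, never above the array median, and was not tested.

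Cd55 was the member that fell. Control arrays read 10.34, 10.38, 10.45 and 10.78, VALI arrays 9.67, 9.72, 9.67 and 10.45, PBEF+/- arrays 10.23, 10.75 and 9.38, and VILI PBEF+/- arrays 9.55, 9.58 and 9.38. The VILI PBEF+/- arrays all lay below every Control and every VALI array. VALI replicate 4 stayed in the Control range, and PBEF+/- replicate 3 was in the range of VILI PBEF+/-, as with Il6. The group means ran from VILI PBEF+/- (9.50 ± 0.11, SD, n = 3) through VALI (9.88 ± 0.38, n = 4) and PBEF+/- (10.12 ± 0.69, n = 3) to Control (10.49 ± 0.20, n = 4). The outer neighbours in this order did not pass, and VALI was not compared with PBEF+/-. Cd55 in VILI PBEF+/- was 1.98-fold lower than in Control, a log2 difference of -0.99 ± 0.27 (limma adjusted p = 0.0302). The other differences did not pass as labelled: -0.61 ± 0.25 in VALI against Control (adjusted p = 0.232), -0.61 ± 0.29 in VILI PBEF+/- against PBEF+/- (0.250) and -0.61 ± 0.19 over the mean of the ventilated groups (0.0626). Without the 2 arrays Cd55 passed in all 4, with -0.99 ± 0.14 (adjusted p = 0.000559), -0.80 ± 0.14 (0.00352), -0.98 ± 0.17 (0.00236) and -0.89 ± 0.11 (0.000138). In that setting no ventilated array reached an unventilated one, and Cd55 was 1.86-fold lower over the mean of the ventilated groups.

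The other Cd55 probe sets gave differences of unequal size. The probe set with the lowest mean differed by -1.45 ± 0.40 in VILI PBEF+/- against Control (adjusted p = 0.0362), and the one with the middle mean by -0.40 ± 0.22 (adjusted p = 0.229). Both passed without the 2 arrays over the mean of the ventilated groups, at -1.24 ± 0.16 (adjusted p = 0.000338) and -0.52 ± 0.11 (adjusted p = 0.00466). A further probe set, shared with Cd55b, stayed between 3.41 and 3.95 on every array and was not used. Markers of airway cells moved the same way as Cd55: 5 of 6 tested club and ciliated cell markers were lower in VILI PBEF+/- than in Control (median -0.77), with mean levels of 13.24 to 13.54 in Control, 12.75 to 13.32 in VALI, 12.79 to 13.44 in PBEF+/- and 12.49 to 12.71 in VILI PBEF+/-. For alveolar type I cells 3 of 6 markers were lower (median -0.32) and for endothelium 2 of 7 (median -0.55), where 12.8% of all tested genes passed as lower with a median of -0.14. B cell markers were lower too: their mean log2 level was 7.45 to 8.24 in Control and 6.04 to 7.08 in VILI PBEF+/-. It was 9.02 in VALI replicate 4 and 7.21 in PBEF+/- replicate 3. The part of these cell types in the Cd55 values was not tested. With the Xist pattern as a covariate the VILI PBEF+/- minus Control difference in Cd55 was -0.71 (adjusted p = 0.0754).

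**Figure D3:**
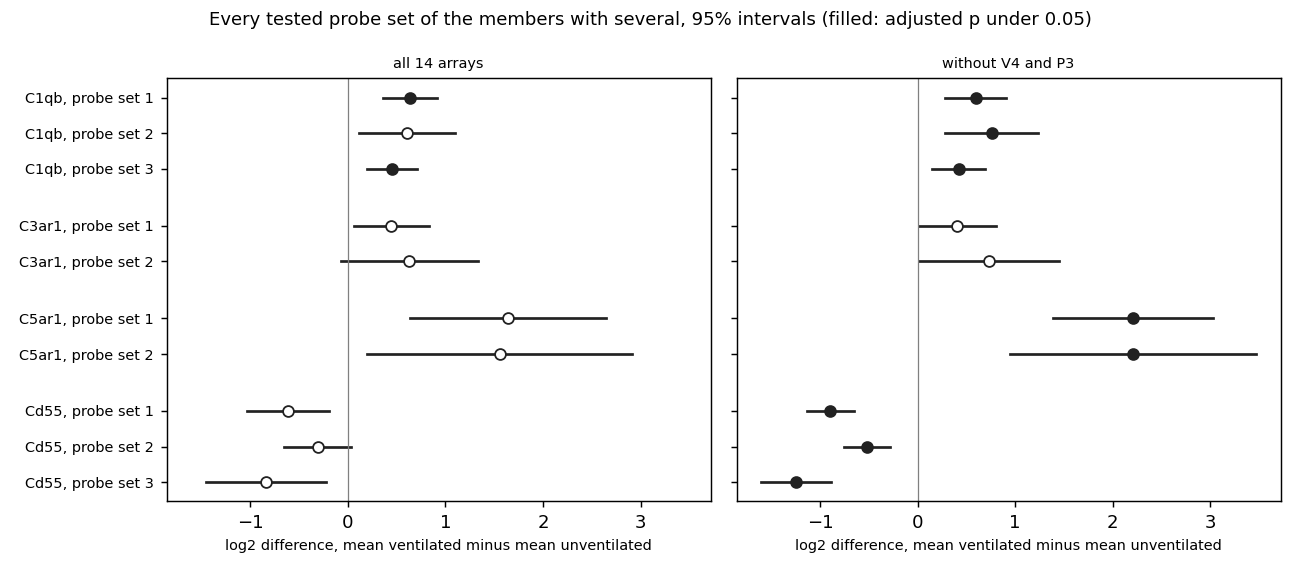
Log2 difference between the mean of the ventilated and the mean of the unventilated groups (horizontal axis) for every tested probe set of the members with several, numbered by mean level, with all 14 arrays and without the 2 arrays; lines are 95% intervals and filled points passed an adjusted p of 0.05 in a limma fit over all probe sets. Probe sets of a gene share a direction: the 3 of C1qb lie at 0.64, 0.60 and 0.46, and the 3 of Cd55 at -0.61, -0.31 and -0.84 with all arrays.

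As counts, 0 of the 7 members passed limma's adjusted p of 0.05 in VALI against Control, where 0% of the 11360 genes passed, and 3 of 7 had an unadjusted p under 0.05, as did 18.3% of all genes. The groups did not overlap for C1qb and C3ar1 there, both higher in VALI, as was so for 4.70% of genes in that direction. For VILI PBEF+/- against Control 2 of 7 members passed as higher, C1qb and C5ar1, and 1 of 7 as lower, Cd55, where 6.39% of genes passed as higher and 12.8% as lower. For C5ar1 those groups did not overlap, as for 13.8% of genes that were higher, nor for Cd55, as for 29.4% of genes that were lower. Over the mean of the ventilated groups 2 of 7 passed as higher, C1qb and C5ar1, and 0 of 7 as lower, beside 4.09% and 4.27% of genes. For VILI PBEF+/- against PBEF+/- 0 of 7 passed and 0% of genes did (unadjusted p under 0.05 for 1 member, C5ar1, and for 2355 genes). The groups did not overlap for C1qb and C5ar1, both higher, as for 8.47% of genes.

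PBEF+/- alone and the comparison of the ventilated groups gave no call. In PBEF+/- against Control 0 of 7 members and 0% of genes passed (unadjusted p under 0.05 for 0 members and 938 genes), and the member differences ran from -0.37 ± 0.27 for Cd55 to 0.25 ± 0.18 for C1qb, with C5ar1 at 0.01 ± 0.65. The Cd55 value moved with PBEF+/- replicate 3: without the 2 arrays Cd55 differed by -0.0036 ± 0.16, and the lowest difference was that of C5ar1, at -0.74 ± 0.54 (adjusted p = 0.574). When 1 array at a time was left out, the Cd55 difference ran from -0.69, without PBEF+/- replicate 2, to -0.0036, without replicate 3. Between the ventilated groups, VILI PBEF+/- against VALI, 0 of 7 members and 0% of genes passed (unadjusted for 0 members and 1191 genes), with differences from -0.56 ± 0.30 for C1qc to 0.72 ± 0.65 for C5ar1. These were -0.44 ± 0.31 and 0.35 ± 0.51 without the 2 arrays, and when 1 array at a time was left out the C5ar1 difference ran from 0.35, without VALI replicate 4, to 0.98. C3ar1 and Cd55 did not overlap there, both lower in VILI PBEF+/-, as for 10.2% of genes. Whether ventilation acted differently with PBEF+/- was tested as an interaction, the ventilation difference within PBEF+/- minus that without, and again 0 of 7 members and 0% of genes passed (unadjusted for 0 members and 634 genes). The member interactions ran from -0.59 ± 0.35 for C3ar1 to 0.70 ± 0.93 for C5ar1, with adjusted p-values of at least 0.904. The interval for C5ar1, -1.30 to 2.70, covers large effects in either direction. The interaction without the 2 arrays was 1.09 ± 0.74 for C5ar1 (adjusted p = 0.600) and -0.35 ± 0.35 for C3ar1 (0.723). When 1 array at a time was left out, the C5ar1 value ran from 0.16, without PBEF+/- replicate 2, to 1.46, without PBEF+/- replicate 3.

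Without the 2 arrays the counts rose. In VALI against Control C1qb and C5ar1 passed as higher and Cd55 as lower, beside 6.53% and 10.5% of genes. C5ar1 passed as higher and Cd55 as lower in VILI PBEF+/- against PBEF+/-, beside 11.2% and 15.3%. In VILI PBEF+/- against Control the same 3 members passed as with all arrays, beside 9.94% and 22.0%, and over the mean of the ventilated groups C1qb and C5ar1 passed as higher and Cd55 as lower, beside 14.9% and 24.6%. In the last of these C5ar1 was higher with no overlap between ventilated and unventilated arrays, as for 7.79% of genes, and Cd55 lower with no overlap, as for 12.6%. These comparisons share Control or ventilated arrays and are not independent of one another.

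The calls with all arrays depended on single arrays. In VILI PBEF+/- against Control, C1qb kept its call in 9 of 14 fits that each left out 1 array, Cd55 in 8 and C5ar1 in 4. C1qb lost it without Control replicate 1, 2 or 4 or VILI PBEF+/- replicate 1 or 2, with a highest adjusted p of 0.122. Cd55 lost it without Control replicate 2, 3 or 4 or any VILI PBEF+/- array (highest adjusted p 0.0963), and C5ar1 kept it only without Control replicate 3, VALI replicate 4, PBEF+/- replicate 2 or PBEF+/- replicate 3. The sizes moved less: 0.56 to 0.85 for C1qb, 1.69 to 2.35 for C5ar1 and -1.04 to -0.89 for Cd55. Over the mean of the ventilated groups C1qb kept its call in 6 of 14 such fits and lost it without Control replicate 2, VALI replicate 1, 2 or 3, or replicate 1 or 2 of PBEF+/- or VILI PBEF+/- (highest adjusted p 0.0925). C5ar1 kept its call in 2, those without VALI replicate 4 or PBEF+/- replicate 3 (highest adjusted p 0.125).

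**Figure D4:**
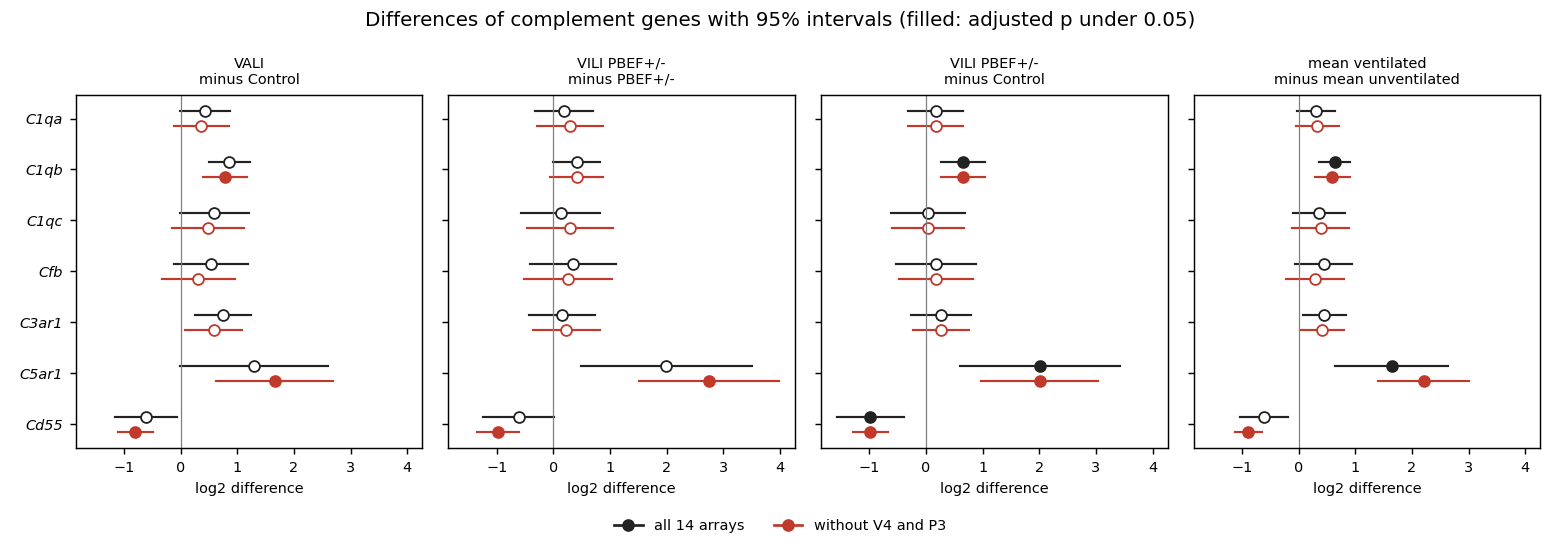
Log2 differences of the 7 members (rows) in 4 comparisons (panels) with all 14 arrays and without VALI replicate 4 (V4) and PBEF+/- replicate 3 (P3); points are limma estimates, lines their 95% intervals, and filled points passed an adjusted p of 0.05. C5ar1 lies farthest to the right in each panel, at 1.29 to 2.01 with all arrays, and Cd55 alone lies to the left, at -0.99 to -0.61.

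Each member's level was set beside those of all tested genes over the 14 arrays by Pearson correlation, as a description of arrays that share groups, Xist pattern and depth of signal. The genes most like C1qa after C1qc were Cfp, the gene of properdin, which stabilises the alternative pathway's enzyme (0.932), Acp5 (0.855), Orm1 (0.840) and Prg4 (0.834). C1qc was most like C1qa, then Cfp (0.896), Acp5 (0.858), Il3ra (0.843) and Uqcrq (0.824). C1qb was most like Prg4 (0.912), Orm1 (0.857), Ccl9 (0.851), Gpt2 (0.841) and Slc26a4 (0.830). For C5ar1 the closest genes were Fkbp5 (0.964), a gene induced by glucocorticoids, Nfil3 (0.961), Pdk4 (0.954), Basp1 (0.952) and Fkbp14 (0.949). Cd55 was closest to Tmtc4 (0.972), Casp6 (0.971), Sdhaf4 (0.969), Mcee (0.964) and Wdr19 (0.963). Cfb was closest to Cxcl13, a B cell chemokine gene (0.845), Mien1 (0.800), Cd177 (0.796), Chil3 (0.792) and Cyth4 (0.782), and C3ar1 to Adssl1 (0.896), Hcls1 (0.886), Ugp2 (0.864), Mapkapk3 (0.858) and Mdh2 (0.839). Between members, C5ar1 and Cd55 ran in opposite directions (r = -0.853 over 14 arrays, -0.769 within groups and -0.861 without the 2 arrays). The value within groups includes the 2 arrays, and the value without them includes the differences between groups. A value within groups and without the 2 arrays was not computed.

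Beyond the members, 48 other complement genes were listed by role, of which 39 had a probe set of their own and 22 were tested. Of the 22, in VILI PBEF+/- against Control, 2 passed as higher and 0 as lower, beside 6.39% and 12.8% of all tested genes, so the share that was higher, 2 of 22, was near that over all genes. The median was -0.09, beside -0.14 over all tested genes. These were Clu and Itgam. Clu encodes clusterin, a secreted inhibitor of the terminal complex, and read 13.91, 14.14, 14.26 and 14.19 in Control, 14.38, 14.59, 14.77 and 14.22 in VALI, 14.24, 14.08 and 14.60 in PBEF+/-, and 14.73, 14.69 and 14.73 in VILI PBEF+/-. VILI PBEF+/- lay wholly above Control. The difference was 0.59 ± 0.14 (limma adjusted p = 0.0193), and it was 0.39 ± 0.10 over the mean of the ventilated groups (adjusted p = 0.0382). Leaving out the 2 arrays gave 0.59 ± 0.10 (adjusted p = 0.00151) and 0.51 ± 0.08 (0.000557). Leaving out 1 array, the first call was lost without VILI PBEF+/- replicate 1 or 2, and the second held only without VALI replicate 4, PBEF+/- replicate 3 or VILI PBEF+/- replicate 3.

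Itgam encodes CD11b, a chain of complement receptor 3 on neutrophils and macrophages. It read 4.18, 4.85, 5.13 and 5.51 in Control, 5.87, 6.33, 5.95 and 5.81 in VALI, 5.08, 6.26 and 6.18 in PBEF+/-, and 6.25, 6.04 and 6.02 in VILI PBEF+/-. Both ventilated groups lay above Control, and PBEF+/- spanned the gap. It was higher by 1.19 ± 0.32 in VILI PBEF+/- than in Control (limma adjusted p = 0.0297), by 1.07 ± 0.30 in VALI (0.135), and by 0.67 ± 0.23 over the mean of the ventilated groups (0.0761). The first of these without the 2 arrays was 1.19 ± 0.33 (adjusted p = 0.0183). The first call was lost without Control replicate 1 or 2 or VILI PBEF+/- replicate 1 or 2. The neutrophil marker levels given for C5ar1 apply beside Itgam also, and their part in it was not tested.

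In the remaining role lists no gene passed as labelled. Of the classical pathway 3 genes were tested, and those with the smallest p were C1ra, a C1 protease (0.15 ± 0.13 over the mean of the ventilated groups), and C2, the catalytic part of the classical C3-cleaving enzyme (0.27 ± 0.18). For the lectin pathway the corresponding genes of 4 tested were the collectins Colec11 (-0.05 ± 0.19) and Colec12 (0.05 ± 0.17). For the terminal pathway both tested genes were close to 0: C6 at -0.09 ± 0.15 and Hc, the gene of C5, at 0.02 ± 0.19. Cfp, the tested gene of the alternative pathway list, read 7.42 ± 0.72 (SD, n = 4) in Control and 8.07 ± 0.29 (n = 4) in VALI, and differed by 0.69 ± 0.25 over the mean of the ventilated groups (adjusted p = 0.0816), or 0.78 ± 0.25 (adjusted p = 0.0278) without the 2 arrays. In that setting 3 of 22 genes passed as higher (Cfp, Clu and Itgam) and 3 as lower over the mean of the ventilated groups, beside 14.9% and 24.6% of all tested genes, so neither count exceeded the share over all genes. The lower ones, chosen after their values were seen, were Cr2, a complement receptor gene of B cells (-1.60 ± 0.23, adjusted p = 0.000353), the regulator Susd4 (-0.99 ± 0.19, 0.00212) and the C1 inhibitor Serping1 (-0.26 ± 0.07, 0.00928). Beside Cr2, all 5 tested B cell markers passed as lower there, where 24.6% of all genes did (median -1.40, against -0.07 over all genes), and their mean log2 level with all arrays was 7.45 to 8.24 in Control, 6.50 to 9.02 in VALI, 7.21 to 8.43 in PBEF+/- and 6.04 to 7.08 in VILI PBEF+/-. Their part in Cr2 was not tested.

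**Figure D5:**
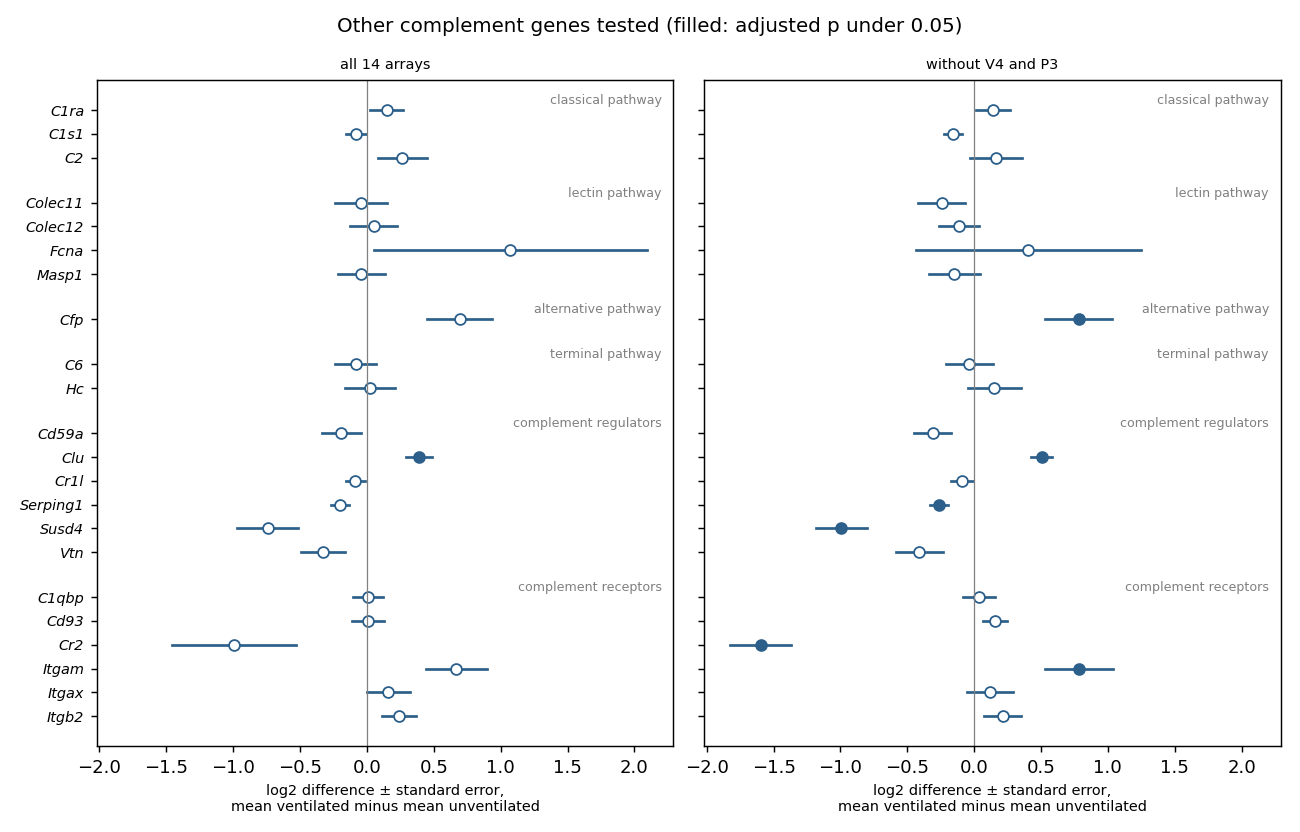
Log2 difference between the mean of the ventilated and the mean of the unventilated groups (horizontal axis, with standard error) for the 22 other complement genes tested, ordered by role, with all 14 arrays and without the 2 arrays; filled points passed limma's adjusted p of 0.05. With all arrays Clu is the filled point, at 0.39, and without the 2 arrays Cfp, Clu and Itgam are filled on the higher side and Cr2, Susd4 and Serping1 on the lower side.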

How the data were processed

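The authors deposited a series-wide table in which each array has a log2 value for each probe set. MAS5 and GCRMA are listed in the submitters' processing notes, with no version or role, and the scanner files were not used here. Per the labels' protocols, 6 µg of total RNA from Trizol extraction was labelled. Values spanned 0.446 to 16.1, 0 were missing, 0 pairs of arrays were identical, and no further scaling was applied. Methods of this kind model background, which bears most on weak probe sets, and the genome build is not given in the sources used here. Of the probe sets, 34958 carried 1 gene symbol, 932 several and 9211 none here; 34754 Entrez identifiers matched and 0 symbols changed.

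All 4 groups entered a linear model with empirical Bayes variances and a mean-variance trend in limma 3.58.1 (R 4.3.3), with Benjamini-Hochberg adjustment over the 11360 genes in each comparison. Groups came from the titles. Same-numbered arrays of different groups did not deviate together (r from -0.352 to 0.316 over 19 pairs), so arrays were unpaired. The number of arrays limits the precision. In a test on simulated data with all 11360 genes, log2 changes of 1 were recovered for 74% of 100 genes in VALI against Control, 64% in VILI PBEF+/- against PBEF+/-, 67% in VILI PBEF+/- against Control and 84% over the mean of the ventilated groups, and changes of 2 for 92%, 91%, 91% and 97%. The simulated noise was independent between genes, so it held no shifts shared by many genes on an array. The percentages check the fitting and do not give the chance of a call in these data. In the measured VALI against Control comparison 0 genes passed, although Il6 differed by 5.81 ± 1.86 (limma adjusted p = 0.164). Named were the members, other complement genes that passed as labelled or else the 2 with the smallest p in each role list, the 5 genes most like each member, and Il6. Members and lists were chosen with earlier results of these data known. Alternatives covered filters, probe set choice, quantile normalization, the variance trend, array weights, fits of only the groups compared, a replicate block, the Xist pattern and each array left out. Figures were drawn with matplotlib 3.10.9.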

Additional observations from a re-analysis of the deposited data

Results flagged for a closer look

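C1qb in Control replicate 3 read 11.43, farther from the other Control arrays (10.62, 10.67 and 10.75) than Dixon's test allows at its usual level for a group of 4. Cd55 in VALI replicate 4 read 10.45, beside 9.67, 9.72 and 9.67 in the other VALI arrays, and stood apart by the same test. Chance marks about 1 in 20 groups this way, so with 7 members and several groups some marks can come from chance alone. VALI replicate 4 is also the array whose Il6 was 2.78. Without Control replicate 3, the VALI minus Control difference of C1qb was 1.05 with a limma adjusted p of 0.0169. That array was singled out by its high C1qb value, so leaving it out must raise this difference. The p-value therefore depends on that choice. With all arrays the limma adjusted p was 0.0809, and it ran from 0.0169 to 0.258 when each array was left out in turn.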

How the results depend on the processing

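With 10 alternatives besides leaving out arrays, the member counts in PBEF+/- against Control, VILI PBEF+/- against VALI and the interaction stayed at 0 wherever they were fitted, also over the arrays left out (0 to 0). In VALI against Control the count of 0 became 4 with array weights and was 0 to 3 when arrays were left out. For VILI PBEF+/- against PBEF+/- it was 0, became 2 with array weights and was 0 to 2 when arrays were left out. The 3 calls in VILI PBEF+/- against Control became 1 with no filter, 1 with the mean of all probe sets, 2 with no variance trend, 0 with a replicate block, 0 with the Xist (sex) pattern as covariate, and 0 to 3 when arrays were left out. The 2 calls over the mean of the ventilated groups became 0 with no filter, 1 with the mean of all probe sets, 1 with no variance trend, 3 with array weights, 3 with the replicate block, 0 with the Xist pattern as covariate and 0 to 3 when arrays were left out. Directions that turned were all of uncalled values: Cfb in VALI against Control was -0.15 and in VILI PBEF+/- against Control -0.20 with array weights, Cfb in the latter ran from -0.055 to 0.35 when arrays were left out, and the second C1qb probe set in PBEF+/- against Control was -0.26. The causes were not tested. Counts over all genes moved more. With all arrays 2182 genes passed in VILI PBEF+/- against Control, beside 1272 with no filter, 7405 with array weights, 593 with the replicate block, 529 with the Xist pattern, 3757 with only those groups, and 4 to 2888 when 1 array was left out (4 without VILI PBEF+/- replicate 1 and 15 without replicate 2). Over the mean of the ventilated groups 950 passed, beside 99, 5751, 969, 0 and 0 to 3419. In VALI against Control 0 passed, beside 4689 with array weights, 27 with only those groups and 0 to 680, and in VILI PBEF+/- against PBEF+/- 0 passed, beside 3363 and 0 to 2157. The Xist pattern and the group are partly aligned in this design: all VILI PBEF+/- arrays were Xist-high, and the other groups held both patterns. Every array with high Il6 was Xist-high also. For VILI PBEF+/- the age is fully aligned with the group.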
